A study of Mus musculus with 12 samples.

Results

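The 38 genes described here are known imprinted genes, taken by symbol from the 55418 genes counted in mouse brainstem and grouped into 17 imprinted clusters. They comprise 30 protein-coding genes and 8 long noncoding RNA (lncRNA) genes on 10 chromosomes, with 16 of them on chromosome 7. The list was assembled around *Meg3*, singled out by its difference between morphine and saline males, and *Magel2*, singled out by its difference between all morphine and all saline mice. Those values of the pair are therefore given as a description without a test. For *Meg3*, the females are mice that its choice did not use.

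An imprinted gene is expressed mainly from the chromosome of one parent, because DNA methylation set in the egg or in the sperm marks a control region that governs several neighboring genes at once. Such clusters commonly pair protein-coding genes with an lncRNA that is expressed from the opposite parental chromosome. Many imprinted genes act on growth, feeding, and brain development, and loss of the paternal or the maternal copies in the *Snrpn*-*Ube3a* cluster underlies Prader-Willi and Angelman syndromes. Reads were not assigned to a parental allele here, so every value is the sum of both alleles.

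Brainstem RNA was measured at P15 in 12 outbred CFW mice, with 3 females and 3 males in the saline group and in the morphine group. Injections of saline or morphine (15 mg/kg) were given 2 times per day on P1 through P14, and tissue was taken 16 h after the last injection. Each mouse gave 1 library, and no label names the dam, so littermates could not be recognized in a stock whose animals differ genetically. In the study, the pups of each litter were divided at random between saline and morphine, so the treatments may share litters. No test here could use that pairing. The labels name the tissue as brainstem, whereas the extraction text deposited with them names spinal cords.

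Total counts ran from 27850565 to 48097947 per library, with a median of 33214511. All 8 hindbrain markers examined were detected in every mouse, with a summed level of 89.3 to 121 CPM (counts scaled to the library total), whereas the 4 forebrain markers summed to 1.27 to 2.93 CPM. Saline male 3 stood apart from its group, with a root mean square deviation of 0.551 on the log2 scale over 10514 genes against at most 0.321 in the other libraries. The library labelled morphine male 6 held *Xist* at 379.9 CPM, against 0.398 to 2.71 CPM in the other 5 males and 547 to 970.5 CPM in the females, and 4 Y-linked genes summed to 17.5% of the mean of the other males. Both libraries stayed in their labelled groups, and the male values on which the results below turn are also given without each of them. Nothing in the labels says whether the mice of a group came from separate litters, so p values measure the spread between these mice only.

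Methylated cytosines of imprinted control regions lie in CG dinucleotides, and the 250 bases before an RNA start of each of 3 members are shown to give their CG content. *Meg3* and *Magel2* are the genes around which the list was built, and *Rian* is the next lncRNA downstream of *Meg3* on the same strand. The sequences are from RefSeq on GRCm38.p6, are read 5′ to 3′ on the gene's own strand, and carry each CG in capitals. The *Meg3* window is chr12:109540746-109540995 on the plus strand, that of *Rian* is chr12:109603695-109603944 on the plus strand, and that of *Magel2* is chr7:62376729-62376978 on the plus strand.
Meg3: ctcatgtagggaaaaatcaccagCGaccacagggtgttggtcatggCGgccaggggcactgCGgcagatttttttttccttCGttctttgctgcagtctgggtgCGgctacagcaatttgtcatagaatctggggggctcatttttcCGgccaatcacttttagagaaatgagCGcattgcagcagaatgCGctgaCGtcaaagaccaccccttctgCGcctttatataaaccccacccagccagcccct
Rian: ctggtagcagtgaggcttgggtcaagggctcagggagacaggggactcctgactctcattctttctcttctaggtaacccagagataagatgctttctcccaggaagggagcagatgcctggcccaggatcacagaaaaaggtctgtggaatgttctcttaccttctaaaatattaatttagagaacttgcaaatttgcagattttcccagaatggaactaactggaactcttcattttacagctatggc
Magel2: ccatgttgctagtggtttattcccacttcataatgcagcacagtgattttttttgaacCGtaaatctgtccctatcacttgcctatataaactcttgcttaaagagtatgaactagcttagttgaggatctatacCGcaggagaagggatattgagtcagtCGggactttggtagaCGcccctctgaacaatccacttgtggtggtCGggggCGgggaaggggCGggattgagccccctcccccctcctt
The *Meg3* window shown held 10 CG, the *Magel2* window 7, and the *Rian* window 0. Another *Meg3* window, at chr12:109545148-109545397 before a start further downstream, held 0. Of 32851 such windows over all genes, 37.8% held at least 10 and 46.3% held at least 7. Windows were counted for 30 members (44 windows, since a gene can have several starts), and *Impact* is not among them. Their median was 10 CG against 6 over all windows. Methylation was not measured in these mice, so the counts describe the sequence only.

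Of the 38 members, 36 were expressed strongly enough to be tested in every comparison. *Dio3*, the enzyme that inactivates thyroid hormone, had 0 to 14 counts per library, and *Phlda2*, a growth restrainer of the placenta, had 0 to 2. Levels below are CPM after TMM normalization over the 12 libraries, and levels of different genes are compared as CPM per kb of annotated exon, with gene positions and exons from GENCODE M21 on GRCm38. On that scale *Meg3* was the most abundant member, at 189.8 ± 54.8 CPM per kb (SD, n = 12), followed by *Snrpn* at 169.5, *Impact* at 101, *Peg3* at 70.9, *Peg13* at 70.8, *Nnat* at 68.3, and *Ndn* at 62.4 CPM per kb. *Meg3* and *Snrpn* differed by less than the spread of *Meg3*, and *Peg3*, *Peg13*, *Nnat*, and *Ndn* differed from each other by less than the SD of *Ndn* (10.5 CPM per kb). At the low end, *Igf2* was at 0.279 and *Kcnq1ot1* at 0.448 CPM per kb. Together the 38 genes held 0.869% of all counts. Spread between mice differed widely between members, from a coefficient of variation of 5.21% for *Grb10*, an adaptor protein that restrains insulin and IGF receptors, to 40.2% for *Igf2*, with a median of 13.6%.

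**Figure D1:**
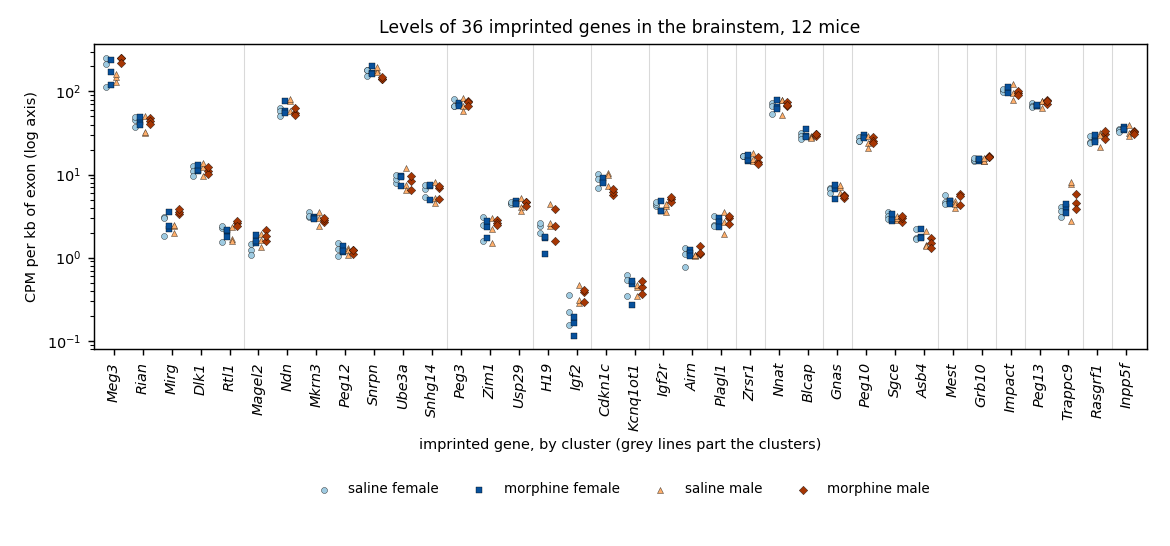
Each point is 1 mouse, with the level on a log axis in CPM per kb of exon and the 36 tested members along the other axis in cluster order. *Meg3* and *Snrpn* sit highest, *Igf2* and *Kcnq1ot1* lowest, and the points of *H19*, *Igf2*, and *Trappc9* are the most spread.

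Genes were taken as differentially expressed when edgeR's quasi-likelihood test gave p under 0.05 before adjustment and the log2 fold change exceeded 0.26 in size, which are the thresholds of the study. Fold changes are morphine over saline and are given with the standard error (SE) of the fit. No member had an adjusted p under 0.05 in any of the 5 comparisons, and the count of members in each comparison stands beside the share of all tested genes that passed the same thresholds. In the sex-combined comparison, 1 of 36 members passed, against 1.19% of all genes. That member was *Magel2*, chosen for this very difference, so the count is a description and no other member passed. No member had levels in 6 morphine and 6 saline mice that did not overlap, against 0.043% of all genes. The median log2 fold change of the members was 0.030, with 21 above and 15 below 0, and that of all genes was -0.020.

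In females, 2 of 36 members passed, against 1.81% of all genes: *Magel2* was higher and *H19* was lower in morphine mice. The females are part of the mice on which *Magel2* was chosen, so its place in this count is a description, and *H19* is the 1 other member. Morphine and saline females did not overlap in 3 members (8.33%), against 5.65% of all genes. In males, 6 of 36 members (16.7%) passed, against 2.99% of all genes, and this count is a description because the male difference of *Meg3* led to the list. Of the 6, *Meg3*, *Mirg*, and *Rtl1* were higher (1.92% of all genes passed in that direction) and *Cdkn1c*, *Snrpn*, and *Gnas* were lower (1.07% of all genes). Morphine and saline males did not overlap in 10 members (27.8%), 7 higher and 3 lower, against 9.1% of all genes. The 10 include *Meg3*, chosen for this difference, and its neighbors *Mirg* and *Rtl1*, so this count is a description as well. Without saline male 3, 10 members and 28.6% of all genes passed, and without morphine male 6, 3 members (*Meg3*, *Mirg*, and *Cdkn1c*) and 2.47% of all genes did. The 10 without saline male 3 were *Meg3*, *Mirg*, *Rian*, *Rtl1*, *Zim1*, *Usp29*, and *Snhg14*, which were higher, and *Cdkn1c*, *Ndn*, and *Trappc9*, which were lower. By edgeR, the adjusted p was then under 0.05 for 5 members and for 2141 of all 18652 genes.

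The interaction of treatment and sex, coded as the male log2 fold change less the female one, passed for 3 members (*Igf2r*, *Snrpn*, and *Ndn*), against 2.94% of all genes. All 8 lncRNA members had a positive interaction term, with a median of 0.28 (log2), and 14 of the 28 protein-coding members did. The 8 include *Meg3*, whose term contains the male difference for which it was chosen. The same sign was seen in lncRNA genes that are not imprinted, of which a list of 7 (named with *Meg3* below) had 7 of 7 positive terms with a median of 0.50 (log2). That list was chosen with earlier results of these data known. None of the 8 lncRNA terms passed the thresholds. Between saline females and saline males, 0 of 36 members passed, and 0 reached p under 0.05 before adjustment in edgeR's test, against 2.47% of all genes past both thresholds. DESeq2's Wald test and edgeR's exactTest each called 1 member there (*Trappc9*). No share of all genes is given for those calls, so they do not single out imprinted genes. No member separated the saline sexes without overlap, against 4.02% of all genes.

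Members were also grouped by the parental allele from which they are generally known to be expressed, which was not measured in this tissue. In males, 5 of the 10 tested members with maternal expression lay above 0 (median log2 fold change 0.042), and so did 13 of the 22 with paternal expression (median 0.053). In females the medians were -0.033 and -0.012, with 3 of 10 and 10 of 22 above 0. The other 4 tested members have imprinting that depends on isoform or tissue.

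**Figure D2:**
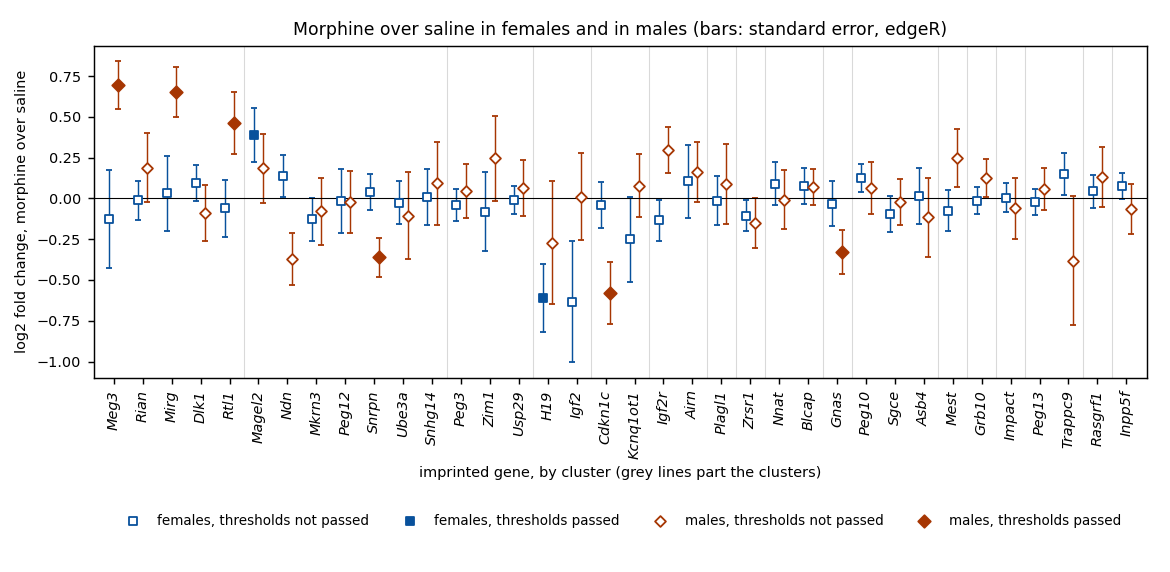
The log2 fold change of morphine over saline is given for each of the 36 tested members in females (squares) and males (diamonds), with bars for the standard error of edgeR's fit and filled symbols where both thresholds were passed. In males, 3 members of the *Dlk1*-*Dio3* cluster are filled above 0 (*Meg3* at 0.70, *Mirg* at 0.65, *Rtl1* at 0.46), and their female values lie between -0.12 and 0.032.

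The *Dlk1*-*Dio3* cluster on chromosome 12 is expressed as 3 maternal lncRNA genes and 3 paternal protein-coding genes. *Meg3* (ENSMUSG00000021268, chromosome 12, 109541001 to 109571726), a nuclear lncRNA with growth-suppressing activity, was at 2355, 2705, and 2968 CPM in saline males and at 4627, 4517, and 3942 CPM in morphine males. All 3 morphine males lay above all 3 saline males, with means of 4362 ± 368 CPM (SD, n = 3) and 2676 ± 307 CPM (SD, n = 3). The log2 fold change was 0.70 (SE 0.15), 0.82 without saline male 3, and 0.75 without morphine male 6. In females *Meg3* was at 2024, 3837, and 4577 CPM under saline and at 3110.0, 4376, and 2172 CPM under morphine. The morphine females lay inside the range of the saline females, with a log2 fold change of -0.12 (SE 0.30) and an adjusted p of 1.00 in edgeR's quasi-likelihood test. That value turned positive when 1 mouse was left out, to 0.14 without saline female 6 and to 0.093 without morphine female 3. The interaction term for *Meg3* was 0.83 (SE 0.40), which contains the male difference for which the gene was chosen and is given without a test.

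*Mirg*, a primary transcript with 14 miRNA hairpins within its span, was at 17.3, 18.1, and 14.3 CPM in saline males and at 24.6, 26.1, and 27.8 CPM in morphine males. It is a low-abundance neighbor of *Meg3*, and its male groups also did not overlap. Its log2 fold change in males was 0.65 (SE 0.15), with an adjusted p of 1.00 in edgeR's quasi-likelihood test, and 0.60 without saline male 3 and 0.60 without morphine male 6. In females it was at 13.3, 22.5, and 21.9 CPM under saline and at 16.05, 25.7, and 17.5 CPM under morphine, with overlapping groups and a log2 fold change of 0.032 (SE 0.23). The male call held whichever of the 6 males was left out. As a neighbor of *Meg3* that followed it across these mice, *Mirg* does not give a separate test, and its male values are a description. The interaction term, 0.64 (SE 0.31), did not pass the thresholds.

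*Rian*, which carries C/D box small nucleolar RNAs and lies between *Meg3* and *Mirg*, did not pass in any comparison. Its levels were 583, 594, and 924 CPM in saline males and 872, 811, and 733 CPM in morphine males, and the high value of saline male 3 lay above every morphine male. The log2 fold change was 0.19 (SE 0.21) in males and -0.011 (SE 0.12) in females. *Rian* passed the thresholds in males once saline male 3 was left out.

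*Rtl1*, a retrotransposon-derived gene read from the opposite strand to *Meg3*, was at 10.5, 14.9, and 10.2 CPM in saline males and at 16.5, 17.5, and 15.2 CPM in morphine males. The groups did not overlap, although saline male 2 came close to the lowest morphine male. Its log2 fold change in males was 0.46 (SE 0.19), with an adjusted p of 1.00 in edgeR's quasi-likelihood test. With 1 male left out it passed in 2 of 6 fits, with 0.40 without saline male 3 and 0.51 (no longer past the threshold) without morphine male 6. Females were at 9.94, 14.6, and 15.2 CPM under saline and at 13.4, 13.6, and 11.3 CPM under morphine, with a log2 fold change of -0.061 (SE 0.18). *Rtl1* shares 8.4% of its exon bases with annotated miRNA genes, 6 of the 7 on the other strand. No strand setting is given for the counting, so any RNA from the other strand cannot be told apart in its count.

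*Dlk1*, a transmembrane relative of the Notch ligands that acts on growth and on fat cell formation, ranged from 53.7 to 78.7 CPM over the 12 mice. It did not pass in any comparison, and its log2 fold change of -0.088 (SE 0.17) in males was opposite in sign to that of the 3 lncRNA genes of its cluster, with a standard error larger than the change.

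**Figure D3:**
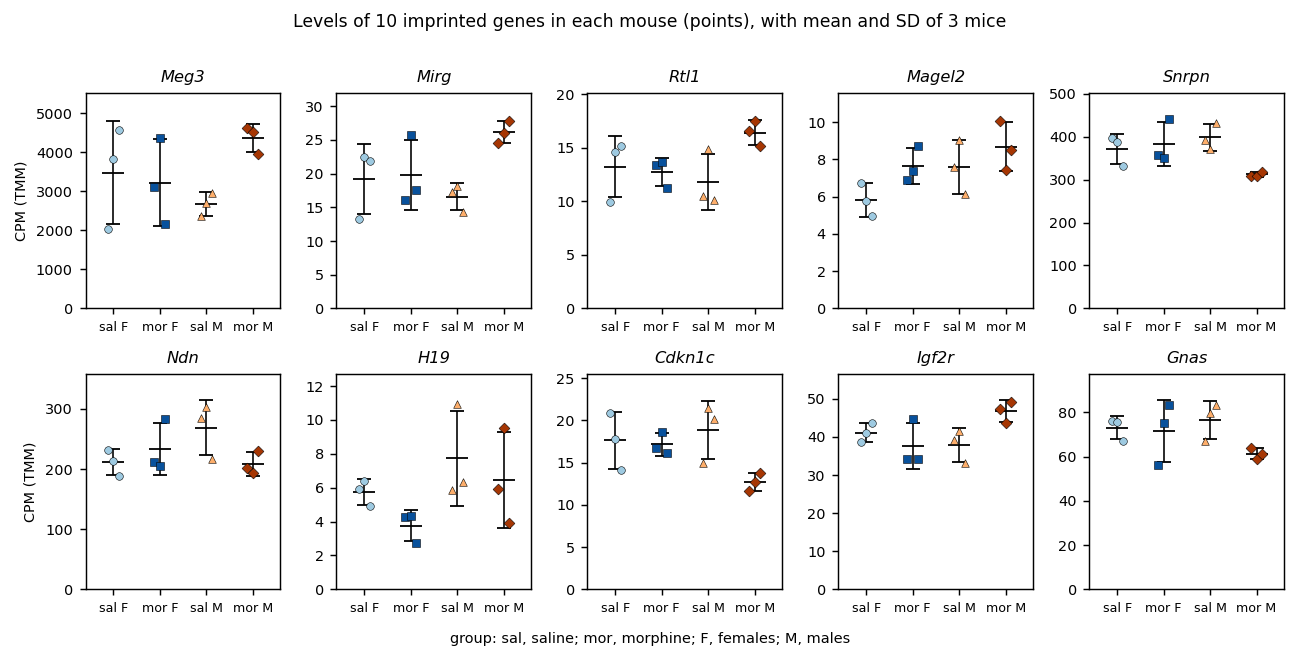
Each panel gives 1 of the 10 members that passed the thresholds in at least 1 comparison, in CPM from 0, with 1 point per mouse and a bar for the mean and SD of 3 mice (sal, saline; mor, morphine; F, females; M, males). In *Meg3* and *Mirg* the 3 morphine males lie above the 3 saline males, while the female groups overlap.

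Other lncRNA genes that act in the nucleus varied with *Meg3* across the mice. A list of 7 that are not imprinted (*Malat1*, *Neat1*, *Miat*, *Snhg11*, *Rmst*, *Ftx*, and *Pvt1*) summed to 2105 to 2751 CPM in saline males and 2857 to 3432 CPM in morphine males, without overlap. In females the sums were 1921 to 3778 CPM under saline and 1918 to 3631 CPM under morphine. In males all 7 lay above 0, with a median log2 fold change of 0.38, and 3 passed, against 2.99% of all genes: *Miat* at 0.58 (SE 0.17), *Snhg11* at 0.51 (SE 0.21), and *Neat1* at 0.48 (SE 0.15). The list was chosen with earlier results of these data known and followed *Meg3* across the same mice. Its male counts are therefore a description. Without saline male 3 the median was 0.47 and 7 passed, with 28.6% of all genes, and without morphine male 6 it was 0.46 and 3 passed, with *Malat1* in place of *Snhg11* and 2.47% of all genes. Across the 12 mice, *Meg3* followed the summed list with Pearson r = 0.953 (adjusted permutation p = 0.000255) and Spearman rho = 0.839 (adjusted permutation p = 0.00674). The correlation was 0.912 without the 2 mice farthest from the median of *Meg3*, 0.967 within the 6 saline mice, and 0.964 within the 6 morphine mice. With the mean of each of the 4 groups removed, Pearson r was 0.975. The 12 mice include the males whose difference led to the choice of *Meg3*, so the p values of its pairs are a description. Meanwhile 8 neuron markers summed to 4495 to 5097 CPM in saline males and 4170 to 4272 CPM in morphine males, and 6 oligodendrocyte markers to 38229 to 60163 CPM and 33453 to 42389 CPM, with no marker of either list at 0. The part of cell makeup or of RNA handling in the *Meg3* difference was not tested. In bulk tissue, fewer cells of a type and less RNA per cell cannot be told apart.

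The *Snrpn*-*Ube3a* cluster on chromosome 7 is expressed mostly from the paternal chromosome in the brain and holds *Magel2*, for which the sex-combined comparison was the source of its choice. *Magel2* (ENSMUSG00000056972, chromosome 7, 62377010 to 62381640), a MAGE family protein that works with a ubiquitin ligase in endosomal protein sorting, was at 6.73, 5.77, and 4.95 CPM in saline females and at 6.89, 7.35, and 8.73 CPM in morphine females. Those groups did not overlap, with the gap between the highest saline and the lowest morphine female being small. In males it was at 7.60, 9.04, and 6.16 CPM under saline and at 10.1, 7.44, and 8.50 CPM under morphine, and these groups overlapped. The log2 fold change was 0.30 (SE 0.13) in the sex-combined comparison, 0.39 (SE 0.17) in females, and 0.19 (SE 0.21) in males, all given without a test. Libraries held 175 to 413 counts of *Magel2*. The sex-combined value was 0.24 without saline male 3 and 0.32 without morphine male 6, and the male value was 0.094 and 0.19 without the same mice.

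*Ndn*, the neighbor of *Magel2* and also a MAGE family gene, with a role in neuronal survival and in breathing, was the more abundant of the pair. It was at 286, 303, and 217 CPM in saline males and at 201, 193, and 231 CPM in morphine males, and at 232, 214, and 189 CPM in saline females and at 212, 205, and 284 CPM in morphine females. Saline males 1 and 2 and morphine female 3 were the highest, and the treatment groups overlapped in both sexes. Its log2 fold change was -0.37 (SE 0.16) in males, which missed the p threshold, and 0.14 (SE 0.13) in females. The male value was -0.46 without saline male 3, then past the thresholds, and -0.46 without morphine male 6, which again missed the p threshold. The interaction term, -0.49 (SE 0.22), passed the thresholds, with an adjusted p of 0.985 in edgeR's quasi-likelihood test. It was -0.64 without saline male 3, -0.57 without morphine male 6, and fell short of the thresholds in 7 of the 12 fits that left out 1 mouse.

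*Snrpn*, which encodes a core spliceosomal protein of neurons, was at 392, 371, and 431 CPM in saline males and at 308, 309, and 318 CPM in morphine males. The 3 morphine males lay close together and below all saline males. Its log2 fold change in males was -0.36 (SE 0.12), with an adjusted p of 1.00 in edgeR's quasi-likelihood test, -0.26 without saline male 3, and -0.38 without morphine male 6, neither of which passed both thresholds. Total counts as the scaling, in place of TMM, moved the median of all genes in males from -0.064 to 0.061 and took the *Snrpn* value to -0.24, which did not pass. Females were at 396, 387, and 332 CPM under saline and at 356, 350.1, and 441 CPM under morphine, overlapping, with a log2 fold change of 0.037 (SE 0.11). The interaction term of -0.38 (SE 0.17) passed the thresholds with an adjusted p of 0.985 in edgeR's quasi-likelihood test. It was -0.33 without saline male 3 and, short of the threshold, -0.39 without morphine male 6. It passed in 6 of the 12 fits that left out 1 mouse, and was lost with total counts and with no filter on low counts. Of its exon bases, 34.1% are shared with other annotated genes, so its count is uncertain.

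The other members of the cluster did not pass in any comparison. *Mkrn3*, a ubiquitin ligase that delays puberty, ranged from 6.17 to 9.07 CPM, and its 3 morphine females lay below its 3 saline females with a log2 fold change of -0.13 (SE 0.13). *Peg12*, a relative of a Wnt pathway component, ranged from 2.75 to 3.92 CPM. *Ube3a*, the ubiquitin ligase lost in Angelman syndrome, ranged from 133 to 247 CPM, and *Snhg14*, the long transcript that runs antisense to it, from 119.6 to 210.5 CPM. Their levels rose and fell together across mice, with Pearson r = 0.940 (adjusted permutation p = 0.00017) and Spearman rho = 0.937 (adjusted permutation p = 0.00085). Pearson r was 0.973 within saline mice and 0.945 within morphine mice. The 2 genes share 1803 exon bases on opposite strands, 8.74% of the exon bases of *Ube3a*, and without a stated strand setting the reads of the pair cannot be told apart there. With other annotated genes included, 27.3% of the exon bases of *Ube3a* are shared with genes on the other strand, so its count is uncertain.

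In the *Peg3* cluster, *Peg3*, a zinc finger protein tied to growth and maternal care, was at 901, 884, and 1076 CPM in saline females, 932, 971, and 896 CPM in morphine females, 897, 782, and 1099 CPM in saline males, and 1015, 992, and 886 CPM in morphine males. Saline males spanned the lowest and the highest of the 12 values. *Zim1*, another zinc finger gene, ranged from 12.2 to 25.2 CPM, and *Usp29*, a deubiquitinating enzyme, from 66.3 to 93.8 CPM. None of the 3 passed in any comparison. Their log2 fold changes in males were 0.047, 0.25, and 0.064, with standard errors larger than each. *Peg3* and *Usp29*, which start near each other on opposite strands, moved together with Pearson r = 0.859 (adjusted permutation p = 0.00272) and Spearman rho = 0.776 (adjusted permutation p = 0.0167).

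The *H19*-*Igf2* cluster held the larger female differences. *H19* (ENSMUSG00000000031, chromosome 7, 142575529 to 142578143), a maternally expressed lncRNA that restrains growth, was at 5.92, 6.38, and 4.93 CPM in saline females and at 4.24, 4.32, and 2.72 CPM in morphine females. All 3 morphine females lay below all 3 saline females, at a log2 fold change of -0.61 (SE 0.21), with an adjusted p of 1.00 in edgeR's quasi-likelihood test, and the call held in 5 of the 6 fits that left out 1 female but not without saline female 5. In males *H19* was at 5.87, 11.0, and 6.34 CPM under saline and at 5.94, 9.51, and 3.90 CPM under morphine, with overlap and a log2 fold change of -0.27 (SE 0.38), which was -0.37 without saline male 3 and -0.016 without morphine male 6. The interaction term of 0.36 (SE 0.46) did not pass, so the female and male values were not shown to differ.

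*Igf2*, a growth factor that in the brain comes mainly from the choroid plexus and the meninges, was counted only 18 to 123 times per library. It was at 1.25, 0.881, and 2.01 CPM in saline females and at 0.922, 1.10, and 0.660 CPM in morphine females, and the female groups overlapped with a log2 fold change of -0.63 (SE 0.37). The value of *Igf2* is the largest female change among the members, but it did not pass the thresholds. Another annotated gene on the same strand covers 62.8% of the *Igf2* exon bases, so its count is uncertain. Across the 12 mice *Igf2* followed the summed level of 10 meningeal fibroblast markers, with Pearson r = 0.767 (adjusted permutation p = 0.0105) and Spearman rho = 0.769 (adjusted permutation p = 0.0167), and that of 10 choroid plexus markers, with Pearson r = 0.709 (adjusted permutation p = 0.0222) and Spearman rho = 0.748 (adjusted permutation p = 0.0203). With the mean of each of the 4 groups removed, Pearson r was 0.702 for the meningeal list and 0.436 for the choroid plexus list. The meningeal sum was 98.6 to 182 CPM in morphine females and 159.5 to 238 CPM in saline females, with no marker at 0 in either group. The choroid plexus sum was 46.1 to 188 CPM in morphine females and 26.4 to 508 CPM in saline females, and 441 to 883 CPM in morphine males and 298 to 551 CPM in saline males. How much of the *H19* and *Igf2* values in females follows from meninges or choroid plexus in the dissected tissue was not tested.

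*Cdkn1c* (ENSMUSG00000037664, chromosome 7, 143458339 to 143461050), the cyclin-dependent kinase inhibitor p57 of the *Kcnq1* cluster, was at 14.9, 21.4, and 20.1 CPM in saline males and at 11.7, 12.7, and 13.7 CPM in morphine males. The groups did not overlap, and morphine male 4 had the lowest of the 12 values. Its log2 fold change in males was -0.58 (SE 0.19), with an adjusted p of 1.00 in edgeR's quasi-likelihood test, -0.49 without saline male 3, and -0.65 without morphine male 6. The call was lost without saline male 2, without morphine male 4, or without morphine male 5. Females were at 20.9, 17.8, and 14.2 CPM under saline and at 16.7, 18.6, and 16.1 CPM under morphine, with a log2 fold change of -0.04 (SE 0.14), and the morphine values lay inside the saline range. An antisense gene covers 30.7% of its exon bases. *Kcnq1ot1*, the paternal lncRNA that silences the genes of this cluster, ranged from 25.0 to 57.5 CPM, did not pass in any comparison, and showed no relation to *Cdkn1c* beyond the spread, with Pearson r = -0.191 (adjusted permutation p = 0.585) and Spearman rho = -0.189 (adjusted permutation p = 0.589).

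*Igf2r*, the receptor that clears IGF2 and sorts enzymes to lysosomes, was at 39.2, 41.5, and 33.1 CPM in saline males and at 47.4, 43.6, and 49.3 CPM in morphine males. The male groups did not overlap, but the log2 fold change of 0.30 (SE 0.14) missed the p threshold, as did the values of 0.25 without saline male 3 and 0.25 without morphine male 6. Females were at 38.8, 41.0, and 43.6 CPM under saline and at 34.1, 44.6, and 34.1 CPM under morphine, overlapping, with a log2 fold change of -0.14 (SE 0.13). The interaction term, 0.45 (SE 0.19), passed with an adjusted p of 0.985 in edgeR's quasi-likelihood test. It did not pass without saline male 3, at 0.34, or without morphine male 6, at 0.41. It passed in 5 of the 12 fits that left out 1 mouse, and did not pass with no filter on low counts. *Airn*, the lncRNA antisense to *Igf2r*, ranged from 2.74 to 4.95 CPM, and its morphine males lay above its saline males with a log2 fold change of 0.16 (SE 0.18), which did not pass.

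*Gnas*, which encodes the stimulatory G protein alpha subunit and several other imprinted isoforms, was at 67.0, 79.6, and 83.3 CPM in saline males and at 64.0, 58.9, and 61.2 CPM in morphine males. Its male groups did not overlap, and the log2 fold change was -0.33 (SE 0.14) with an adjusted p of 1.00 in edgeR's quasi-likelihood test. It held in 1 of the 6 fits that left out 1 male, with -0.22 without saline male 3 and -0.34 without morphine male 6, neither past the thresholds. It was also lost with DESeq2's size factors, with total counts, with DESeq2's Wald test, and with edgeR's exactTest. Females were at 76.3, 75.8, and 67.1 CPM under saline and at 56.1, 75.2, and 83.5 CPM under morphine, with a log2 fold change of -0.034 (SE 0.14). Genes on the other strand share 22.0% of its exon bases.

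*Nnat*, a proteolipid of the neuronal endoplasmic reticulum, was at 133, 121, and 97.0 CPM in saline females, 119, 112, and 144 CPM in morphine females, 146, 146, and 95.8 CPM in saline males, and 137, 124, and 125 CPM in morphine males. The groups overlapped within each sex, and saline males held both the lowest and the highest value. *Blcap*, in whose intron *Nnat* lies, ranged from 80.9 to 107 CPM, and its morphine males lay above its saline males by a log2 fold change of 0.072 (SE 0.11), under the threshold. *Peg10*, a retrotransposon-derived gene, was at 189.7, 168, and 167 CPM in saline females, 188, 201, and 186 CPM in morphine females, 159.8, 141, and 192 CPM in saline males, and 189, 169, and 159.9 CPM in morphine males. Its groups overlapped, with log2 fold changes of 0.13 (SE 0.086) in females and 0.062 (SE 0.16) in males. Beside it, *Sgce*, the epsilon-sarcoglycan gene whose loss causes myoclonus dystonia, ranged from 28.7 to 37.6 CPM, and *Asb4*, an ankyrin repeat protein, from 5.20 to 8.81 CPM.

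*Peg13*, a paternal lncRNA within an intron of *Trappc9*, was at 347, 316, and 304 CPM in saline females, 319.7, 316, and 321 CPM in morphine females, 365, 359.6, and 296 CPM in saline males, and 373, 332, and 363 CPM in morphine males. Saline male 3 had the lowest of the 12 values, and the groups overlapped within each sex. *Trappc9*, a subunit of a complex that directs vesicle traffic, was at 61.8, 64.5, and 21.8 CPM in saline males, and between 24.7 and 46.7 CPM in the other 9 mice. Saline males 1 and 2 thus held the highest levels and saline male 3 the lowest. Its difference between saline females and saline males, -0.81 (SE 0.38), was the largest of the members in size in that comparison and missed the p threshold in edgeR's quasi-likelihood test, with an adjusted p of 0.987. *Peg13* and *Trappc9*, which are on the same strand and share no exon bases, moved together with Pearson r = 0.817 (adjusted permutation p = 0.00361) and Spearman rho = 0.874 (adjusted permutation p = 0.00314), and with Pearson r of 0.921 within saline mice and 0.703 within morphine mice.

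The remaining 7 members stand alone in their clusters and did not pass in any comparison. They are *Plagl1*, a zinc finger transcription factor (15.1 to 27.4 CPM over the 12 mice), *Zrsr1*, a relative of splicing factors (59.6 to 81.7 CPM), *Mest*, a predicted hydrolase (15.5 to 22.9 CPM), *Grb10* (131 to 152 CPM), *Impact*, an inhibitor of the GCN2 stress kinase (408 to 636 CPM), *Rasgrf1*, an exchange factor for Ras (234 to 373 CPM), and *Inpp5f*, a phosphoinositide phosphatase (244 to 333 CPM). Their log2 fold changes lay between -0.11 and 0.076 in females and between -0.15 and 0.25 in males. A gene on the other strand shares 23.1% of the exon bases of *Mest*. *Grb10*, whose levels were the least variable, did not overlap between morphine and saline males at a log2 fold change of 0.13 (SE 0.11), under the threshold.

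In all, 17 pairs of neighbors or of a member with a list were compared over the 12 mice, and 9 had an adjusted permutation p under 0.05 for Pearson r. The points of a pair share their library and its depth. How many pairs of other genes would pass over these mice was not tested, so the count does not show coordination within imprinted clusters. *Meg3* followed *Mirg* with Pearson r = 0.835 (adjusted permutation p = 0.00435) and Spearman rho = 0.734 (adjusted permutation p = 0.0209). *Meg3* followed *Rian* with Pearson r = 0.684 (adjusted permutation p = 0.0302) and Spearman rho = 0.657 (adjusted permutation p = 0.0436). The p values of the *Meg3* pairs are again a description. With the mean of each of the 4 groups removed, Pearson r was 0.739 for *Mirg* and 0.68 for *Rian*. *Rian* and *Mirg* showed Pearson r = 0.320 (adjusted permutation p = 0.4) and Spearman rho = 0.252 (adjusted permutation p = 0.523). *H19* and *Igf2* gave Pearson r = 0.719 (adjusted permutation p = 0.0186) and Spearman rho = 0.601 (adjusted permutation p = 0.074), and r fell to 0.410 without the 2 mice farthest from the median of *H19*, so this relation rests on them. *Nnat* and *Blcap* (0.610), *Magel2* and *Ndn* (0.463), *Igf2r* and *Airn* (0.234), *Peg10* and *Sgce* (0.0881), *Snrpn* and *Snhg14* (-0.255), and *Meg3* and *Dlk1* (-0.578) had Pearson r values that did not pass the adjustment. For *Magel2* and *Ndn*, Pearson r was 0.977 within the 6 saline mice and 0.257 within the 6 morphine mice, and the difference between the treatments was not tested.

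**Figure D4:**
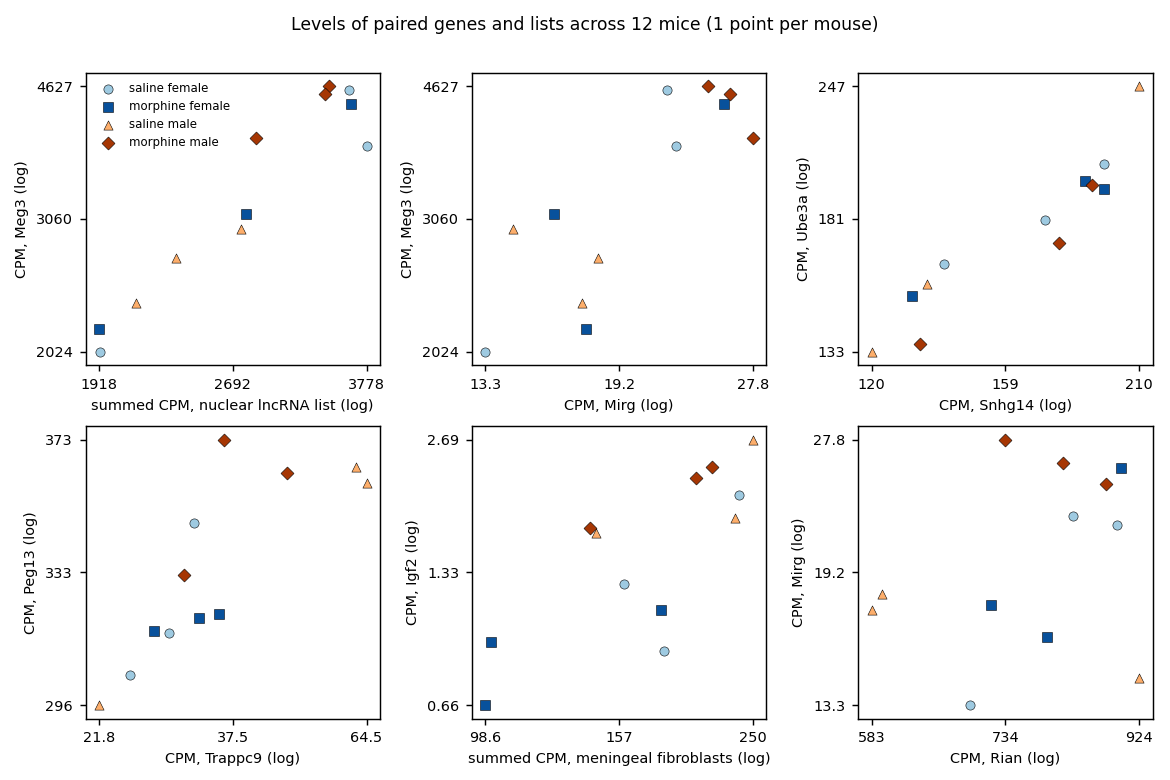
Each panel sets the CPM of a member against a neighbor or a summed marker list on log axes, with 1 point per mouse and the 4 groups by color and shape. *Meg3* rises with the nuclear lncRNA list and with *Mirg*, *Ube3a* with *Snhg14*, and *Peg13* with *Trappc9*, while *Rian* and *Mirg* show no clear relation.

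Further imprinted genes and the genes that maintain imprints were examined beside the members. Of 40 further imprinted genes, 36 were tested in the sex-combined comparison and 1 passed (2.78%, against 1.19% of all genes), *Dcn*, a matrix proteoglycan of fibroblasts, at -0.49 (SE 0.22). Whether these genes are imprinted in brainstem was not measured. In females 2 of 36 passed (5.56%, against 1.81%), *Dcn* at -0.76 (SE 0.19) and *Begain*, a postsynaptic protein gene next to *Dlk1*, at 0.34 (SE 0.12). The meningeal fibroblast markers summed to 98.6 to 182 CPM in morphine females and 159.5 to 238 CPM in saline females. The part of meninges in the *Dcn* values was not tested. In males 1 of 34 passed (2.94%, against 2.99%), *Commd1*, a copper and endosome trafficking gene that overlaps *Zrsr1* on the other strand, at -0.66 (SE 0.24). Of the further imprinted genes, 2 of 37 passed in the interaction (5.41%, against 2.94%), *Commd1* at -0.95 (SE 0.28) and the low-count *Zfp264* at 2.06 (SE 0.93), and 1 of 35 passed between the saline sexes (2.86%, against 2.47%), *Zfp264* at 2.60 (SE 0.47). Among 15 genes that set or maintain imprints, such as *Dnmt1*, *Uhrf1*, *Zfp57*, and *Trim28*, 0 passed in the sex-combined, female, male, or saline comparison, and 0 reached p under 0.05 before adjustment in edgeR's test. In the interaction 1 of 14 passed (7.14%, against 2.94%), *Setdb1*, a histone H3 lysine methyltransferase, at 0.40 (SE 0.18).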

How the data were processed

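RNA-seq counts of 12 mouse brainstem libraries were analyzed for 38 imprinted genes. The authors sequenced poly-A RNA as single-end reads, used Trimmomatic for trimming and STAR for alignment to mm10, and deposited featureCounts counts over exons for 55418 genes, as whole numbers without normalization. Strand and multimapping settings, and tool versions, are not given in the sources used here. Symbols were matched to GENCODE M21 on GRCm38 (55418 found, 115 of them with more than 1 gene), and sequences are from RefSeq.

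Tests across all genes used edgeR 4.0.16 (quasi-likelihood, R 4.3.3, TMM, filterByExpr, Benjamini-Hochberg adjustment over all genes). Sex was a covariate of the sex-combined fit, each sex and the saline sexes were fitted alone, and the interaction was fitted over 12 mice. The dam, a covariate in the study, is not in the labels. Fold changes are morphine over saline. Correlations used log2 CPM with a prior count of 2 and two-sided permutation tests with 100000 resamples, with p values adjusted over the 17 pairs. Scripts were tested on simulated data. Alternatives were other scalings, filters, and tests (DESeq2 1.42.0, exactTest), other covariates, and leaving out each mouse. No 2 libraries of a group agreed within sampling noise.

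Every member is accounted for, and each mouse's value is given for *Meg3*, *Magel2*, members past the thresholds in any comparison, and the member with the highest level per kb in each cluster of 2 or more. Members and lists were chosen with earlier results of these data known.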

Additional observations from a re-analysis of the deposited data

Results flagged for a closer look

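*Ndn*, *Snrpn*, and *Igf2r* stood out because the treatment effect differed between the sexes at p under 0.05 before adjustment in edgeR's test, with none holding after adjustment over all genes (adjusted p of 0.985 each). The interaction term of *Ndn* was -0.49 on the log2 scale (0.14 in females and -0.37 in males). That of *Snrpn* was -0.38 (0.037 and -0.36), and that of *Igf2r* was 0.45 (-0.14 and 0.30). With 1 mouse left out, *Ndn* passed the thresholds in 5 of 12 fits, *Snrpn* in 6, and *Igf2r* in 5.

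Single mice stood far from the other 5 of their treatment for 3 of the 72 combinations of member and treatment examined, where chance flags about 1 in 20. *H19* was at 11.0 CPM in saline male 2, against 4.93 to 6.38 CPM in the other saline mice. *Snrpn* was at 441 CPM in morphine female 3, against 308.5 to 356 CPM in the other morphine mice. *Blcap* was at 107.0 CPM in the same female, against 85.5 to 92.6 CPM.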

How the results depend on the processing

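The number of members past the thresholds was 1 in the sex-combined comparison, 2 with scaling by total counts, 3 with no filter on low counts, 2 with DESeq2's Wald test, and 0 to 2 when 1 mouse was left out. In females it was 2, but 0 in the contrast from the fit of all 12 mice, and 1 to 2 with 1 mouse left out. In males it was 6, from 4 to 7 under other scalings, filters, and tests, and from 2 to 10 with 1 mouse left out. The 10 came without saline male 3, when 28.6% of all genes passed. The interaction gave 3, and from 0 to 7 with 1 mouse left out: 0 without saline female 6, without morphine female 3, or without morphine male 4, and 7 without saline female 4. Between the saline sexes it was 0, 2 with no filter on low counts, 1 with DESeq2's Wald test, 1 with exactTest, and 1 in the contrast from the fit of all 12 mice. With 1 saline mouse left out it was 0 to 8, the 8 being without saline male 3. Where no share of all genes stands beside a count in this paragraph or in the paragraphs below, the count does not single out imprinted genes. Leaving out saline male 3 and morphine male 6 together, chosen after seeing the data, gave 0 members in the sex-combined comparison, 18 in males (with 41.0% of all genes past the thresholds), and 9 in the interaction (30.7% of all genes). These fits rest on 2 mice in each male group.

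In the sex-combined fit, the replicate number as a block gave 2 members, *H19* and *Mirg*, and the *Magel2* value was 0.31. Mice with the same number in both treatments differ in sex, and their deviations correlated between -0.68 and 0.24. These values do not show that the numbers pair the mice. They cannot exclude a shared dam, since littermates can differ in sex.

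In males, the *Meg3* value, given without a test, ran from 0.61 to 0.82 with 1 male left out. As a description, *Mirg*, a neighbor that followed *Meg3*, passed whichever of the 6 males was left out and in 8 of 8 other settings. *Cdkn1c* passed in 3 and 8, *Rtl1* in 2 and 6, *Snrpn* in 2 and 7, and *Gnas* in 1 and 1. Scaling by total counts left 4 members higher and 1 lower in males, in place of 3 and 3. The *Meg3* value in females of -0.12 ran from -0.41 without morphine female 2 to 0.14 without saline female 6, and was 0.093 without morphine female 3. The number of correlated pairs was 9 under each alternative. Depth limits the tested members with few counts per library, such as *Igf2* (18 to 123), *H19* (74 to 501), *Peg12* (86 to 150), *Airn* (94 to 177), *Magel2* (175 to 413), and *Asb4* (176 to 298).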
